A study of Saccharomyces cerevisiae with 14 samples.

Results

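Methyl methanesulfonate (MMS) was given at 0.0125%, the higher of the study's doses, for 30 min to Saccharomyces cerevisiae strain FF18984, and RNA was compared with that of mock-treated cells. The comparison takes 4 of the 14 arrays of the series: mock and 0.0125% MMS in minimal F1 medium, and mock and 0.0125% MMS in rich YPD medium. Each treated array was compared within its medium, so there are 2 arrays a side and 1 per condition. Per the labels, mid-log cultures grown at the same temperature were split into a mock aliquot and aliquots with 0.00125% or 0.0125% MMS, and the RNA of these aliquots was hybridised in turn to a single membrane that was stripped in between. No condition was repeated, and the labels do not give the order of the hybridisations. The genes described as changed went the same way in minimal and in rich medium. The spread in the test came from the disagreement between the media over mock, low-dose and high-dose arrays. It had 2 residual degrees of freedom and was pulled towards the spread of genes of similar signal, with 8.929 prior degrees of freedom. The standard errors and p-values thus rest more on other genes than on a gene's own disagreement between the media. They measure only this combined spread, which may be technical.

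MMS is an alkylating agent that methylates DNA bases, and the lesions block replication forks. In budding yeast the checkpoint kinases Mec1, Rad53 and Dun1 answer such damage by raising ribonucleotide reductase, the enzyme that makes deoxyribonucleotides, through release of the repressor Rfx1. Alkylating agents also react with proteins and glutathione, and the transcription factors Yap1, Rpn4, Gcn4 and Hsf1 are known to act in the wider response, while ribosomal protein genes are known to be repressed under many stresses.

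Values below are log2 signals scaled to the median of each array, and a 2-fold change is a difference of 1. Over genes and the 4 arrays the median was -0.22, and a gene with no signal over background stood at about -2.40. Both spots lay above the background on all 4 arrays for 3595 of 6094 genes, or 59%. The mean signal was at or below the background for 8.06% to 10.6% of the genes of an array. Of the genes known to be specific to a or alpha cells, all 7 a-specific and 2 of 4 alpha-specific genes had both spots above the background on all 4 arrays. Both lists held bright and dim probes: in the F1 mock array the a-specific genes ran from -1.51 for AGA2 to 3.27 for ASG7 and the alpha-specific ones from -1.75 for STE3 to 3.13 for SAG1. The levels are of different probes and give no order between genes.

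The spot file of the high-dose YPD array stood apart from the others. On the other 13 arrays of the series the spot signals followed the authors' series table in a straight line, with a Pearson correlation across positions of at least 0.997. On this array the correlation was 0.672, although the order of the positions was kept, with a Spearman correlation of 0.946. The signal exceeded by the top 1% of its positions was 6.03 times the median, against 17.6 times in the series table for the same array and 26.8 times in the spot file of the YPD mock array. Differences that rest on the high-dose YPD array are therefore given from both sources for some genes. For the others they are from the spot files alone. Across genes the spot files and the series table gave differences that correlated at 0.964 in F1 and 0.755 in YPD.

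**Figure D1:**
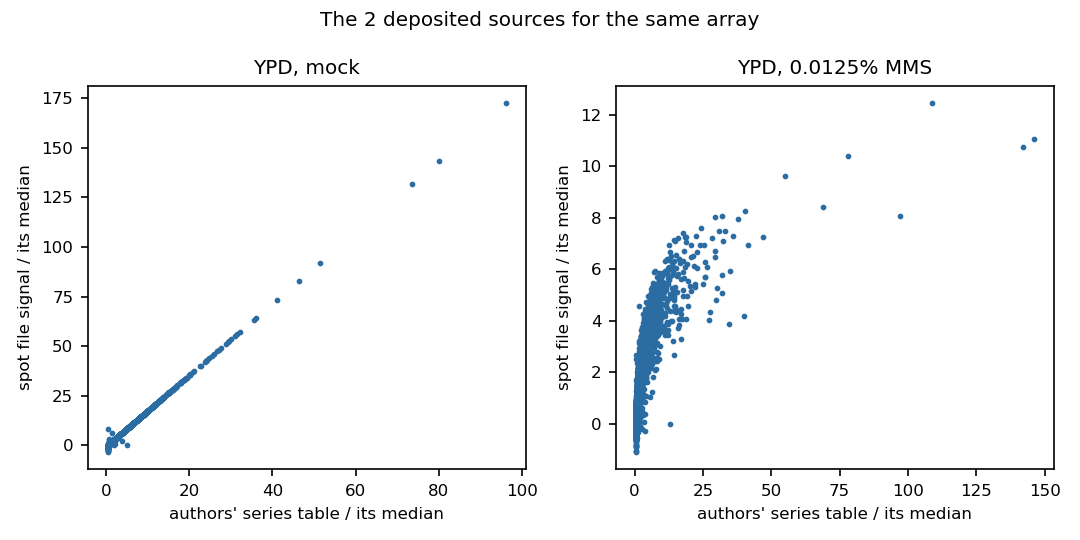
Spot file signal of each position (mean of its spots, vertical axis) against the authors' series table (horizontal axis), each divided by its own median, for the YPD mock array and the YPD 0.0125% MMS array. The mock array lies on a line, while the treated array bends over, so that its brightest positions differ less in the spot file than in the table.

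At 0.0125% MMS for 30 min, 25 genes rose and 7 fell in both media. The genes that rose most clearly were CDC39, which encodes the scaffold of the Ccr4-Not complex that shortens mRNA tails, TRS65, a subunit of the TRAPP II vesicle-tethering complex, and MSB2, a cell-surface mucin that signals osmotic stress. YAP1, the transcription factor of the oxidative stress response, and TOR1, the kinase that couples growth to nutrients, also rose. HYP2, which encodes the translation factor eIF5A, fell the most. In limma 0.41% of all genes tested passed as higher and 0.115% as lower at an adjusted p under 0.05, and 758 had an unadjusted p under 0.05. The calls were fragile: no gene passed in limma without the F1 mock array (390 at an unadjusted p under 0.05) or without the YPD mock array (899), without the high-dose F1 array 26 passed as higher and 36 as lower, and without the high-dose YPD array 183 and 120. With an array left out, its side holds 1 array, which is assumed to vary like the others. No gene passed in limma on the authors' series table (503 at an unadjusted p under 0.05) or once the median of each spotting plate was removed (686), and the smallest adjusted p of the 32 genes was then 0.062. The direction was the same in both media of the series table for 31 of the 32 genes.

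The regulators of growth and stress among the genes that rose had the following levels. CDC39 stood at 3.05 in the F1 mock array and 6.10 at the high dose, and at -0.05 and 3.69 in YPD. It was higher at the high dose in both media, by 3.39 ± 0.44 (SE) or 10.5-fold, with a limma adjusted p of 0.0184. TOR1 went from 3.12 to 5.67 in F1 and from 0.86 to 4.50 in YPD, a rise of 3.10 ± 0.44 or 8.56-fold (limma adjusted p = 0.0184). Both genes were brighter in F1 than in YPD before treatment, and the treated YPD array exceeded the mock F1 array for each. TSC11, a subunit of TOR complex 2, went from -0.78 to 4.48 in F1 and from -0.44 to 1.72 in YPD, and rose by 3.71 ± 0.66 (limma adjusted p = 0.0385). Its difference was larger in F1 than in YPD, at 5.26 against 2.16. YAP1 was the opposite case, at 3.95 and 5.94 in F1 and 1.38 and 5.69 in YPD. It rose by 3.16 ± 0.58 or 8.92-fold (limma adjusted p = 0.041), and the series table gave 2.07 in F1 and 2.96 in YPD. MSB2 rose by 3.19 ± 0.44, from 4.21 to 7.15 in F1 and from 1.96 to 5.40 in YPD (limma adjusted p = 0.0184).

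Of the genes of metabolism and organelles, ADE6, an enzyme of purine synthesis, rose by 3.14 ± 0.44, from 1.74 to 5.18 in F1 and from -0.30 to 2.54 in YPD. LEU3, the regulator of leucine synthesis genes, rose by 2.76 ± 0.46, and MKS1, a negative regulator of retrograde signalling from mitochondria, by 2.57 ± 0.48. Several genes for mitochondrial proteins rose as well. They were MRPL25, a protein of the mitochondrial ribosome, by 2.97 ± 0.42, ISM1, the mitochondrial isoleucyl-tRNA synthetase, by 3.27 ± 0.55, HFA1, the mitochondrial acetyl-CoA carboxylase, by 3.07 ± 0.51, and AIM45 by 2.66 ± 0.44. The limma adjusted p of these genes ran from 0.0184 for ADE6 and MRPL25 to 0.0497 for MKS1. The rise was not shared by the mitochondrial ribosome at large. MRPL25 was the only one of 64 mitochondrial ribosomal protein genes to pass, where 0.41% of all genes passed as higher. The median of the 64 was 0.02. In the secretory pathway TRS65 went from 3.87 to 6.89 in F1 and from 1.61 to 5.15 in YPD, and TED1, which acts on GPI anchors in the endoplasmic reticulum, from 1.94 to 5.12 and from 1.10 to 4.33. TRS65 rose by 3.28 ± 0.44 and TED1 by 3.20 ± 0.46, both with a limma adjusted p of 0.0184.

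A few of the genes that rose act on chromosomes or RNA. CDC13, which caps telomeres, rose by 3.91 ± 0.62 (limma adjusted p = 0.0316), and ESP1, the separase that releases sister chromatids, by 3.27 ± 0.62 (limma adjusted p = 0.0497). MND1, which acts in meiotic recombination, rose by 2.42 ± 0.43. TRM9, a tRNA methyltransferase of wobble uridines, rose by 2.63 ± 0.45. The remaining genes that passed as higher were SSB1, a ribosome-associated Hsp70 chaperone, AQY2, an aquaporin, CCH1, a calcium channel, DAP1, a haem-binding protein of sterol synthesis, BBC1, a protein of actin patches, MAG2 and YOR019W. They rose by 2.83 to 4.13. For SSB1, CDC13, CCH1, AQY2 and DAP1 at least 1 spot was at or below the background on at least 1 of the 4 arrays, so the size of their difference depends on the pseudocount. CCH1 in the YPD mock array stood at -2.38, at the floor of the scale.

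Among the genes that fell, HYP2 stood at 3.46 in the F1 mock array and -0.08 at the high dose, and at 5.15 and 0.44 in YPD. It was lower in both media, by a log2 difference of -4.12 ± 0.64, with a limma adjusted p of 0.0303. The series table gave HYP2 differences of -3.88 and -2.69. At 0.00125% MMS, set against the same mock arrays, HYP2 had differences of -3.30 in F1 and -1.32 in YPD. SCJ1, a chaperone of the endoplasmic reticulum, went from 2.39 to -0.09 in F1 and from 3.33 to 0.70 in YPD, a difference of -2.56 ± 0.43 (limma adjusted p = 0.0328). PDR15, a plasma membrane transporter of the multidrug resistance family, changed by -2.34 ± 0.44 (limma adjusted p = 0.0488), but the series table gave only -0.54 in YPD. SPB4, an RNA helicase of large ribosomal subunit assembly, changed by -2.60 ± 0.46 (limma adjusted p = 0.0367). SPB4 is the gene whose direction was not kept, since the series table put it at 0.07 in YPD. The other genes that fell were YGR025W, YDR417C and YDR535C, by log2 differences of -3.23, -2.61 and -2.47. Of the 7 genes that fell, SCJ1, YDR535C and PDR15 had both spots above the background on all 4 arrays.

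**Figure D2:**
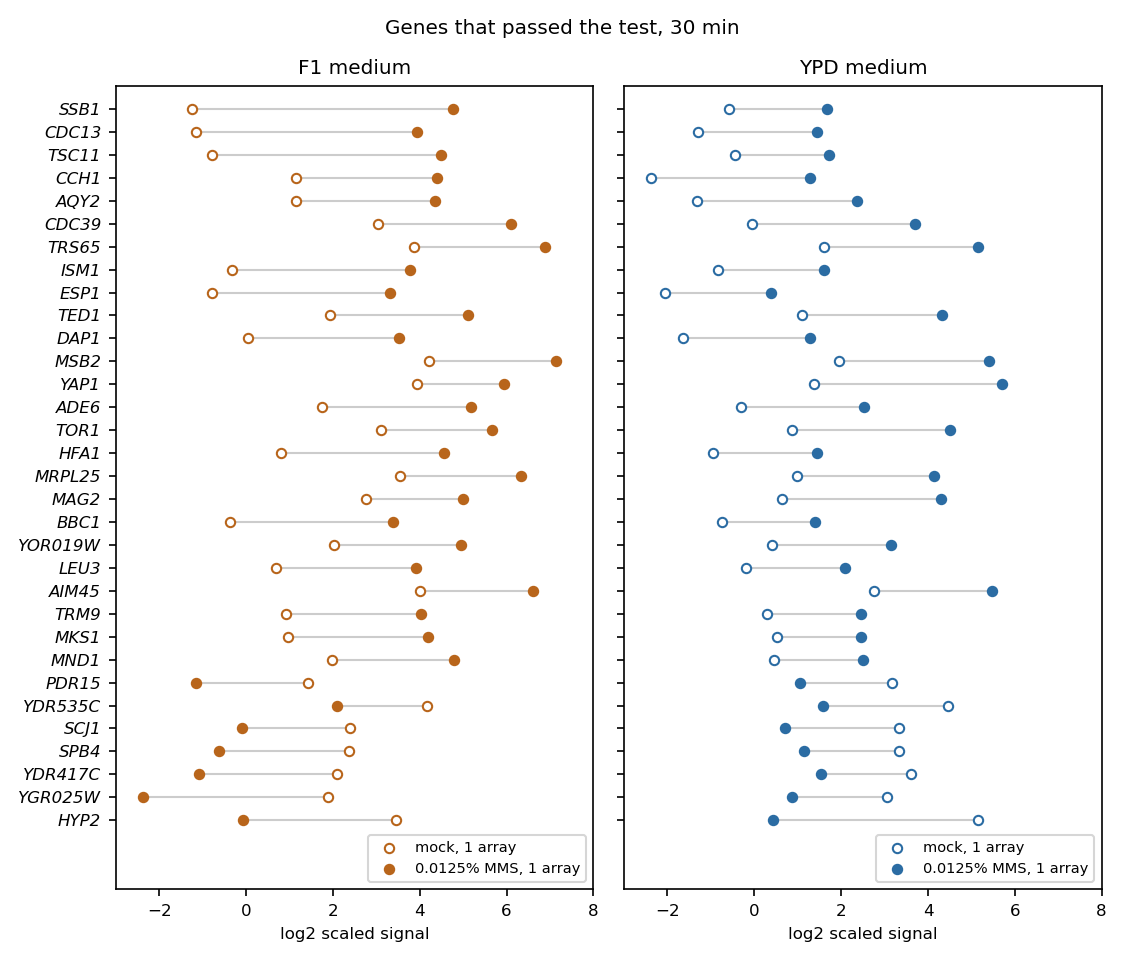
Log2 scaled signal (horizontal axis) of the 32 genes that passed, ordered by their mean difference, in F1 (left) and YPD (right). Open points are mock and filled points 0.0125% MMS, 1 array each. The filled point lies to the right for the 25 genes that rose and to the left for the 7 that fell in both panels, and most mock points of the rising genes lie further left in YPD.

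Below the threshold in the direction of a fall stood SPO73, KAP123, TIR2, HXT2, ACA1, PMT4, YOR105W, GPI19 and AIM33, with limma adjusted p from 0.0561 to 0.114 and log2 differences of -2.63 to -1.98. KAP123, a nuclear import receptor, had -3.20 in F1 and -1.98 in YPD, and 0.20 in YPD in the series table. ACA1, an ATF/CREB-type transcription factor, had -1.51 and -3.16, and in the series table -1.44 and -2.04. HXT2 is a glucose transporter, TIR2 a mannoprotein of the cell wall and PMT4 a mannosyltransferase of the secretory pathway. None of these genes passed the test.

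Some of the genes that passed have a near copy in the yeast genome, and the labels do not say how far the probes tell copies apart. HYP2 and its copy ANB1 had the same direction: ANB1 went from 4.35 to 2.87 in F1 and from 4.32 to 1.78 in YPD, a difference of -2.00 that did not pass (limma adjusted p = 0.129). SSB2, the copy of SSB1, was bright throughout, at 3.80 and 3.39 in F1 and 4.39 and 3.77 in YPD, where SSB1 in the mock arrays was at -1.24 and -0.59. TOR2 had a difference of -1.52 (limma adjusted p = 0.362) beside the rise of TOR1. AQY1 had one of -0.49 and ACC1, the cytosolic relative of HFA1, lay near the floor of the scale on all 4 arrays.

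Counting without a test, 180 genes were at least 2-fold higher and 167 at least 2-fold lower in both media, which is 2.95% and 2.74% of the genes measured. The series table gave 62 and 39, and 56 and 33 genes met the limit in both sources. A further 89 genes were 2-fold higher in F1 and 2-fold lower in YPD, and 55 the reverse. In F1 alone 1094 genes were 2-fold higher and 1130 lower, and in YPD 597 and 629. The shared genes were thus 16.5% of those higher in F1 and 30.2% of those higher in YPD, and 14.8% and 26.6% of those lower. Over all 6094 genes the difference had the same sign in both media for 53.5%, with 25.2% above 0 and 28.3% below 0 in both. Across genes, which are not independent, the F1 and YPD differences correlated at a Pearson coefficient of 0.182 from the spot files and 0.169 from the series table. The differences were also wider in F1, with a standard deviation over genes of 1.24 against 0.82 in YPD.

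**Figure D3:**
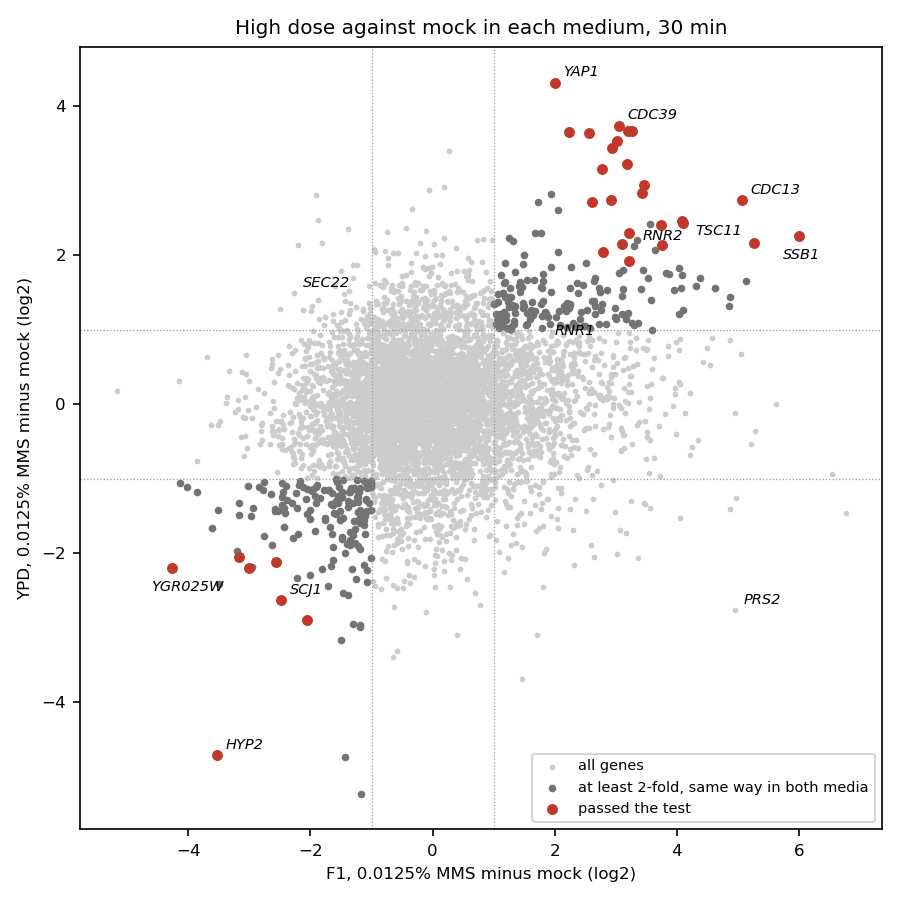
Difference between 0.0125% MMS and mock in YPD (vertical axis) against that in F1 (horizontal axis), log2, with 1 point per gene for 6094 genes. Dark points are genes at least 2-fold changed the same way in both media (180 higher, 167 lower), red points the 32 that passed the test, and dotted lines mark 2-fold. The cloud is wide and nearly round, and the red points lie at its upper right and lower left edges.

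The genes that passed as higher included many long genes. The median gene length was 2193 bp for the 25 genes that passed as higher and 1692 bp for the 170 of the 180 genes at least 2-fold higher that have a length, against 1248 bp for all 5567 genes with one. It was 1122 bp for 151 of the 167 genes at least 2-fold lower. Genes of over 3000 bp, such as TOR1, HFA1, CDC39 and CCH1, made up 40% of the 25, 23.5% of the 2-fold higher, 8.61% of the 2-fold lower and 8.77% of all genes. Over all genes the Spearman correlation of length with the difference was weak, at 0.096 in F1 and 0.075 in YPD, and it was 0.102 and 0.091 in the F1 and YPD sets at 1 h. The part of gene length in these results was not tested.

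Differences also varied with the spotting plate a gene came from. In F1 the median difference per spotting plate ran from -0.58 on plate 6 to 0.92 on plate 18, and in YPD from -0.21 on plate 1 to 0.34 on plate 10. Plate 7, with 370 of the 6094 genes, carried 6 of the 25 genes that passed as higher. Plate 5, with 322 genes, carried 4 of the 7 that passed as lower and 29 of the 167 that were 2-fold lower. On plate 5 9.01% of the genes were 2-fold lower in both media, against 2.74% of all genes. Among the 25, 4 genes came from neighbouring wells of plate 7, namely MRPL25 with TRS65 and MSB2 with MND1. HYP2, the gene that fell the most, came from well F21 of plate 5, in a run of wells that were all 2-fold lower in both media. The others of the run were MTC7 in F19 (-3.09), YER0441 in F20 (-1.56), ACA1 in F22 (-2.33), UTR5 in F23 (-1.33) and SPO73 in F24 (-2.26). Among the 2-fold lower genes, 42 of 167 (25.1%) had a neighbouring well in the same group, and among the 2-fold higher 24 of 180 (13.3%). The share to be expected from all wells was not computed. With plate medians removed, 186 genes were at least 2-fold higher and 128 lower, of which 153 and 108 were the same genes as before. Some of the lower genes came from the first column of wells of a plate. Among those that passed, SCJ1 was in O01 of plate 14 and YGR025W in B01 of plate 7. Others that were 2-fold lower in both sources were RPB7 in A01 and BNA7 in E01 of plate 5 and CSS2 in B01 of plate 6. The share of lower genes per column was not computed. The part of the plates and wells in these results was not tested further.

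Ribonucleotide reductase was higher in both media without passing the test. RNR2, the small subunit, had differences of 3.30 in F1 and 2.12 in YPD (1.86 and 2.17 in the series table), a mean of 2.71 ± 0.56 with a limma adjusted p of 0.0739. RNR1, the large subunit, went from 0.54 to 2.33 in F1 and from 0.74 to 1.92 in YPD, a mean of 1.49 ± 0.45 (limma adjusted p = 0.245). RNR3, the damage-induced large subunit, had 2.03 and 1.17, and RNR4, the other small subunit, 1.15 and 0.59. All 4 subunit genes were higher at the high dose in both media, and RNR1, RNR2 and RNR3 by at least 2-fold in each, where 2.95% of all genes were. In the series table RNR3 had 0.50 and RNR4 0.31 in YPD, and the mean difference of RNR4, 0.87, was 0.05 under median centring. RNR2 had a spot at or below the background on at least 1 array. Among the regulators, SML1, the inhibitor protein of the enzyme, had -1.86 and -0.37, DUN1 -1.09 and -0.25, and the repressor gene RFX1 0.11 and -0.54. Of the 9 genes of this list 4 or 44.4% were above 0 and 2 or 22.2% below 0 in both media, against 25.2% and 28.3% of all genes, and none passed. At 1 h, in cultures measured on other membranes, RNR1 had differences of 2.30 in F1 and 3.36 in YPD and RNR2 of 2.33 and 2.74.

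The lists of DNA repair genes differed from one another. Of 11 base excision and alkylation repair genes, 3 or 27.3% were above 0 and 4 or 36.4% below 0 in both media, against 25.2% and 28.3% of all genes, and none passed. APN1, the apurinic endonuclease, had 0.80 in F1 and 1.91 in YPD, while MAG1, the glycosylase that removes 3-methyladenine, had -1.22 and 0.03. Of 24 nucleotide excision and postreplication repair genes, 9 or 37.5% were above 0 and 10 or 41.7% below 0 in both media, and none passed. Homologous recombination had a median of 0.40, the highest of the 30 lists under this normalization. Under cyclic loess it had 0.31, below the ribonucleotide reductase list at 0.67 and tRNA synthetases at 0.33. Without background subtraction it had 0.12, below ribonucleotide reductase at 0.23, the proteasome at 0.20 and general stress at 0.14. In the series table it had 0.27, below purine and one-carbon synthesis at 0.39. Of the 20 homologous recombination genes, 10 or 50% were above 0 and 2 or 10% below 0 in both media, against 25.2% and 28.3% of all genes. TOP3, the topoisomerase of the Sgs1 complex, had 3.01 and 1.14, and RAD54 -0.59 and 0.45. None of the 20 passed the test, and 9 of them had both spots above the background on all 4 arrays. None of the 15 checkpoint genes or the 34 replication genes passed either. RFA1, a subunit of the single-stranded DNA binding protein, had 2.85 and 1.53, with both of its spots above the background on only some arrays.

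For protein turnover, the median of 35 proteasome genes was 0.17 in F1 and 0.42 in YPD, against -0.13 and 0.01 for all genes. Of the 35, 12 or 34.3% were above 0 and 7 or 20% below 0 in both media, against 25.2% and 28.3% of all genes. None passed the test. RPN7 had 2.46 and 1.60 and RPN2 2.18 and 1.31, both subunits of the regulatory particle, but PUP2, a core subunit, had -1.35 and -1.83. In the series table the YPD differences were 0.66 for RPN7, 0.55 for RPN2 and -0.36 for PUP2. RPN4, the transcription factor of the proteasome genes, had -0.18 and 0.13. UBA1, the ubiquitin-activating enzyme, had 1.18 and 1.90 (1.11 and 1.08 in the series table). Among 31 cytosolic chaperones SSB1 alone passed, where 0.41% of all genes passed as higher. CCT8 of the chaperonin had 1.94 and 1.85 and STI1, an Hsp70 and Hsp90 co-chaperone, 1.78 and 1.57. In the series table the YPD differences were 0.87 for CCT8 and 0.77 for STI1. HSP78, a mitochondrial chaperone, had 2.61 and 1.39.

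Of 37 genes of oxidative stress and thiol metabolism, YAP1 was the only one to pass, where 0.41% of all genes passed as higher. YNL134C, a predicted oxidoreductase, had 1.67 and 2.30, and OYE3, an NADPH oxidoreductase, 2.36 and 1.63. With YAP1 they were the 3 members of this list that were 2-fold higher in both media, where 2.95% of all genes were. In the series table OYE3 had 1.83 and 0.63, so 2 of the 3 met that limit in both sources. The list as a whole had 10 members or 27% above 0 and 8 or 21.6% below 0 in both media, against 25.2% and 28.3% of all genes. General stress genes differed between media, with a median of -0.09 in F1 and 0.46 in YPD over 29 genes. HSP12, a membrane-stabilising stress protein, had 0.23 and -0.07, and DDR48, a gene named for DNA damage, -0.97 and 0.07. Among drug transporters SNQ2 had -0.84 and 0.57 and PDR5 0.17 and -0.58.

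Cytosolic ribosomal protein genes were mostly below 0 or split between the media. The median over 121 genes was -0.52 in F1 and -0.33 in YPD. In both media 60 of them or 49.6% were below 0, against 28.3% of all genes, and 9 or 7.44% above 0, against 25.2%. None of the 121 passed the test, and 9 were at least 2-fold lower in both media, where 2.74% of all genes were. RPL35A went from 2.66 to 1.41 in F1 and from 3.55 to 1.20 in YPD. RPL17B had differences of -1.19 and -2.96, and RPS8B of -1.35 and -1.89. The copies of the first of these genes did not follow them closely. RPL35B, the copy of RPL35A, had -0.87 and -0.0062, and RPL17A, the copy of RPL17B, was higher, at 0.19 and 0.61. The series table put RPS8B at 0.43 in YPD, and none of the 9 genes was 2-fold lower in both media of that table. The list medians in the table were -0.50 and -0.27. The median of the members' mean difference was -0.41, -0.20 under cyclic loess and -1.05 under median centring.

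Histone genes had the lowest median of the 30 lists, at -1.26 in F1 and -0.57 in YPD over 10 genes. Of these, 7 or 70% were below 0 in both media, against 28.3% of all genes, none was above 0, and none passed the test. HHT1 went from 3.26 to 1.09 in F1 and from 2.45 to 1.91 in YPD, and HHT2, which encodes the same histone H3, from 3.24 to 0.28 and from 2.50 to 2.31. The core histone genes come in near-identical pairs, so the values of a pair are not separate measurements. HTA2 had -0.79 and -1.55, and HTB2 was the core histone gene that went apart between the media, at 0.57 and -2.34. The linker histone gene HHO1 and the variant HTZ1 also had opposite signs in F1 and YPD.

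Of the glycolytic and fermentation genes, 13 of 24 were below 0 in both media, 1 was above 0 and none passed the test. Those are 54.2% below and 4.17% above, against 28.3% and 25.2% of all genes. PGK1, phosphoglycerate kinase, had -1.18 in F1 and -2.99 in YPD (-1.22 and -1.19 in the series table), PDC6 -1.23 and -1.45 and HXK1, a hexokinase, -1.78 and -0.86. The series table gave -0.31 for PDC6 and 0.0039 for HXK1 in YPD. The median was -0.62 in F1 and -0.40 in YPD, but -0.64 and 0.00 in the series table. The direction also depended on the scaling: the median of the members' mean difference was -0.59, 0.05 under cyclic loess and -1.07 under median centring. At 1 h the medians of the same genes were 0.37 and 1.71.

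Of 59 amino acid synthesis genes none passed, and 13 or 22% were above 0 and 13 or 22% below 0 in both media, against 25.2% and 28.3% of all genes. ARO1, a pentafunctional enzyme of aromatic amino acid synthesis, had 2.06 and 2.04, and LYS2, of lysine synthesis, 2.76 and 1.26, and both exceeded 2-fold in both media of the series table too. GCN4, the activator of these genes, had -0.63 and -2.72, against -0.64 and 0.13 in the table. Of 38 translation factors HYP2 passed, as lower, where 0.115% of all genes did. RPG1, a subunit of eIF3, had 4.62 and 1.56 with a limma adjusted p of 0.107. TEF2, elongation factor eEF1A, had -3.04 and -0.59, against -3.11 and 0.28 in the series table. Its copy TEF1 had -0.85 and -2.48, against -0.88 and -0.62 in the series table. Among 65 ribosome biogenesis genes, 26 or 40% were above 0 in both media and 12 or 18.5% below, against 25.2% and 28.3% of all genes. UTP15, of the small subunit processome, had 2.66 and 1.32, and SPB4 was the member that passed, as lower.

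**Figure D4:**
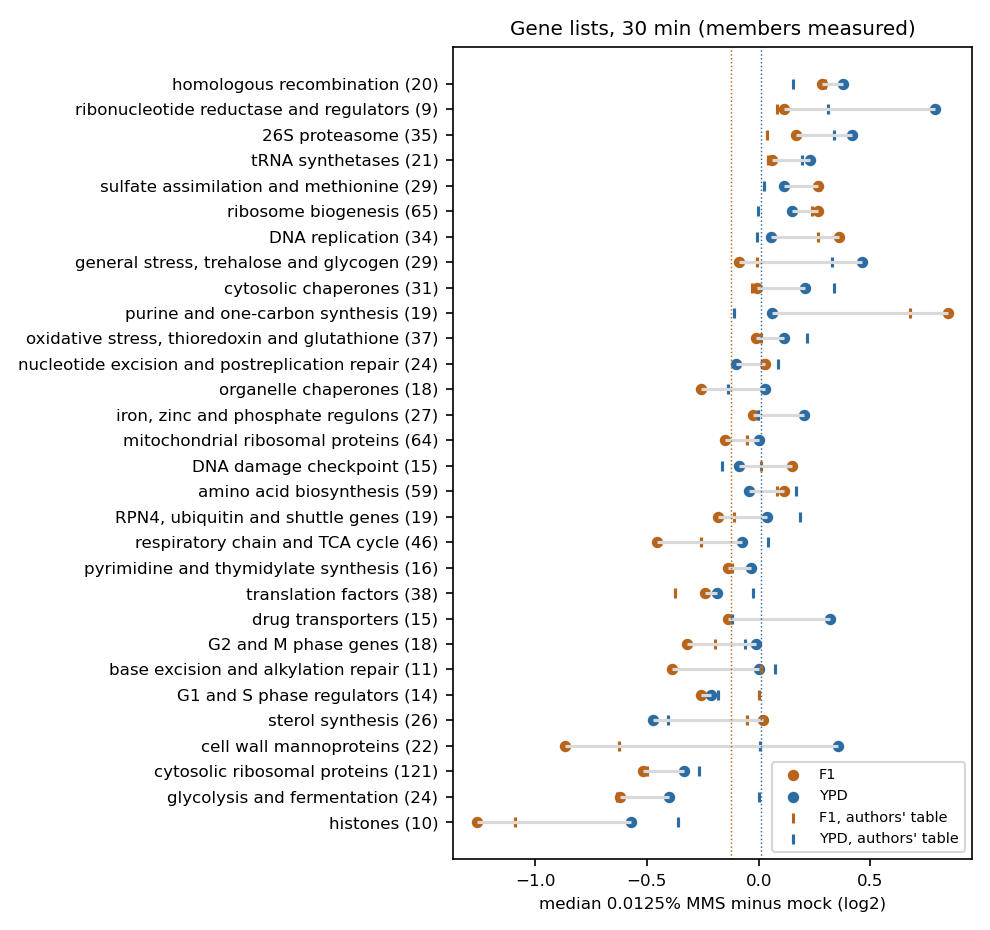
Median difference between 0.0125% MMS and mock (log2, horizontal axis) over the measured members of 30 gene lists, in F1 and YPD. Points are from the spot files, ticks from the authors' series table, and dotted lines the medians of all genes (-0.13 in F1, 0.01 in YPD). Lists are ordered by the median of the members' mean difference, which puts histones, glycolysis and cytosolic ribosomal proteins at the bottom, and in cell wall mannoproteins and purine synthesis the media lie far apart.

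Some lists differed between the media. Purine and one-carbon synthesis had a median of 0.85 in F1 and 0.06 in YPD over 19 genes, and cell wall mannoproteins one of -0.86 in F1 and 0.35 in YPD over 22 genes. In the series table these medians were 0.68 and -0.11, and -0.63 and 0.01. Among single genes, PRS2, a phosphoribosyl pyrophosphate synthetase, had the largest opposite differences of the genes above background on all 4 arrays, at 4.95 in F1 and -2.76 in YPD. In the series table PRS2 had 4.28 and -0.12. SEC22, a SNARE protein of transport between endoplasmic reticulum and Golgi, had -2.27 and 1.49. With 1 array per condition these differences between media could not be tested.

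The 30 min effect was compared with that at 1 h, where mock and 0.0125% arrays of the same strain and media exist on other membranes. Of the 180 genes at least 2-fold higher in both media at 30 min, 19 were so at 1 h, which is 10.6% of the 180 and 7.36% of the 258 at 1 h. Of all genes 4.23% were 2-fold higher at 1 h. Of the 167 lower ones 5 were lower at 1 h, or 2.99% of the 167 and 1.85% of 270, where 4.43% of all genes were 2-fold lower. Across all genes, which are not independent, the mean differences at 30 min and at 1 h had a Pearson correlation of -0.013. Of the 25 genes that passed as higher at 30 min, 12 were above 0 and 9 below 0 in both media at 1 h, and of the 7 that passed as lower, 4 were below 0 and 2 above 0. The shares of all genes on either side of 0 in both media at 1 h were not counted, so these counts have no background beside them. The all-gene medians at 1 h were 0.0071 in F1 and 0.0045 in YPD. DAP1 and MKS1 were the 2 genes still at least 2-fold higher in both media at 1 h, with 1.60 and 1.19 for DAP1 and 1.32 and 1.18 for MKS1.

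The difference between the times was tested as a dose-by-time term in limma over the 12 FF18984 arrays, and 14 genes, or 0.23%, passed, with 1043 at an unadjusted p under 0.05. Of these 14, 9 were among the 32 that passed at 30 min. The time term contains the same 30 min arrays that chose the 32 genes, so a change towards 0 at 1 h is favoured by that choice and the 9 are no independent evidence of one. MRPL25 had 2.77 and 3.16 at 30 min but -1.46 and -1.49 at 1 h, a change of effect of -4.44 ± 0.60 (limma adjusted p = 0.0234). TSC11 had -0.82 and -2.31 at 1 h, and CDC39 -0.45 and -0.19, with changes of -5.28 ± 0.89 and -3.72 ± 0.61 (limma adjusted p = 0.0452 for both). TED1 had -0.09 and -1.82 at 1 h and AIM45 -0.37 and -0.59. In the other direction SCJ1 had 0.40 and 0.65 at 1 h, YDR535C 0.97 and 0.44, TIR2 0.77 and 2.88, RET2, a subunit of the COPI coat, 1.58 and 0.51, and ERR2 2.42 and 1.23. The count was 0 without the F1 mock array (753 at an unadjusted p under 0.05), 8 without the high-dose F1 array, 59 without the YPD mock array and 281 without the high-dose YPD array, and 0 on the series table (914 at an unadjusted p under 0.05). Under median centring it was 447, of which 397 were higher at 1 h, against 5 of 14, and the median change of effect over all genes was then 0.41. The times were hybridised to separate membranes, so time and membrane cannot be told apart.

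**Figure D5:**
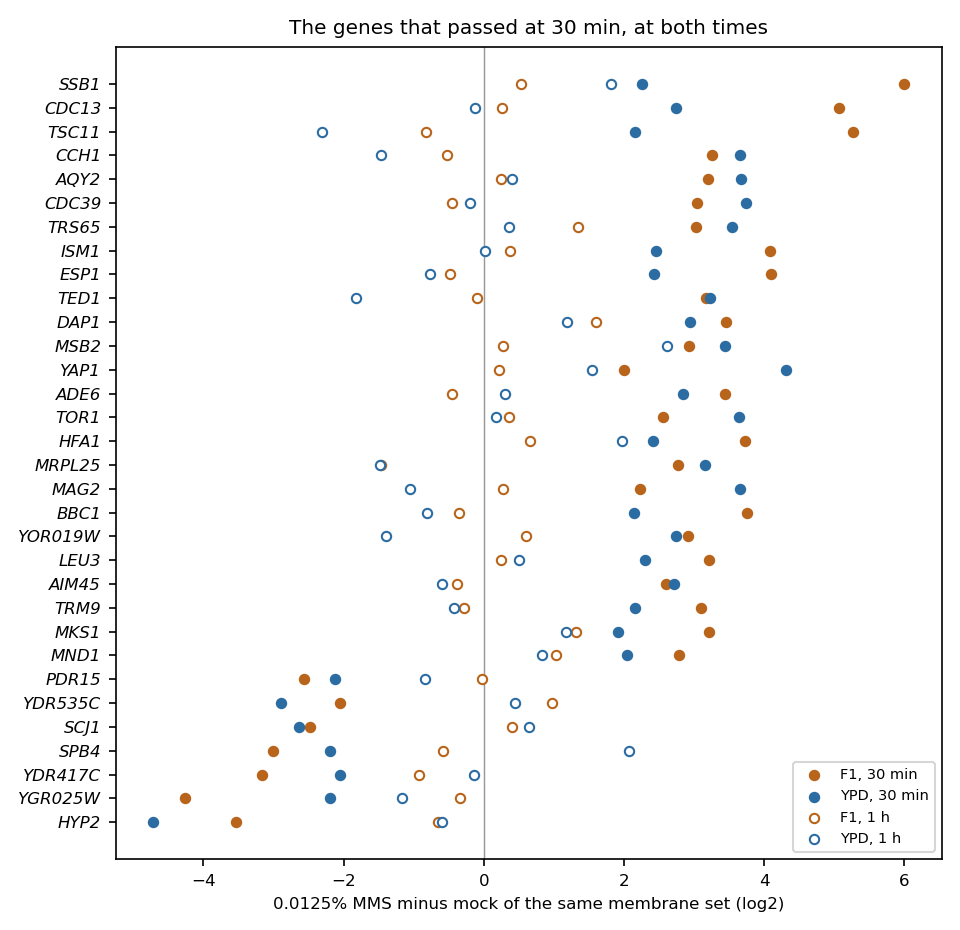
Difference between 0.0125% MMS and mock of the same membrane set (log2, horizontal axis) for the 32 genes that passed at 30 min. Filled points are 30 min and open points 1 h, in F1 (brown) and YPD (blue), 1 pair of arrays each. At 1 h the open points gather around 0, from -2.31 for TSC11 to 2.62 for MSB2, both in YPD.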

How the data were processed

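RNA of strain FF18984 was labelled with 33P and hybridised to gene membranes, with 1 array per condition. Per the file headers, the authors deposited an intensity per spot as the integral, its background and their difference, for 6912 positions with 2 spots each. A further table of the whole series, also deposited by the authors as intensity, comes with no account in the labels of how it was made. The software and scanner are not given in the sources used here.

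The background-subtracted intensity was divided by each array's median positive value, set to 0 where negative, and log2-transformed after a pseudocount of 0.187 (the 10th percentile of positive values) was added. Spots were averaged per open reading frame and the 14 arrays of the series were quantile normalised. In limma 3.58.1 (R 4.3.3; lmFit, eBayes with trend), the high-dose coefficient was fitted on 6 arrays with membrane set as a block. The 2 low-dose arrays of the same sets were kept in this fit, where they add only to the estimate of spread. P-values were adjusted by Benjamini-Hochberg over all 6094 genes, with a threshold of 0.05. The difference between 30 min and 1 h was a dose-by-time term on the 12 FF18984 arrays. The fit was tested on simulated data with known changes. The number of arrays limits the precision. Figures were drawn with Python 3.11.15 and matplotlib 3.10.9.

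Symbols and gene lengths came from the RefSeq gene table (assembly R64), which held 5567 of the 6094 open reading frames. Genome positions are left out, as no build is named in the files. The search of promoters for motifs was not run. The comparison, the gene lists and the rule for naming genes were chosen with earlier results of these data known. For each direction the rule took at most 12 genes, by size of change, that passed, went the same way in every spot and lay above background on all 4 arrays. Where fewer passed, genes with the smallest p filled the direction and are given as values. It also took from each list the 3 members of smallest p, a fixed set of damage and stress genes, the 4 genes per direction with the largest opposite differences, and, by smallest p of the time term, 5 per direction. The other genes that passed are named too, and were chosen after their values were seen. The alternatives were other normalizations, no background subtraction, a larger pseudocount, the series table, brighter genes only, other sets of arrays, no block, each array left out in turn and, chosen after seeing the data, plate medians removed.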

Additional observations from a re-analysis of the deposited data

Results flagged for a closer look

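The high-dose effect differed between the times by the dose-by-time term in limma for 9 genes that passed at 30 min. The change of effect from 30 min to 1 h was -5.28 for TSC11, -4.46 for CCH1, -4.44 for MRPL25, -4.15 for TED1, -3.89 for ESP1, -3.72 for CDC39 and -3.14 for AIM45. It was 3.18 for YDR535C and 3.08 for SCJ1. The 30 min arrays that chose these genes also enter the time term, which favours a change towards 0.

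In 8 genes with both spots above background on all 4 arrays the effect went opposite ways in the media, and the difference was not tested. The effect in YPD minus that in F1 was -7.72 for PRS2, -4.48 for YLR041W, -3.58 for CDC6 and -3.40 for HRK1. It was 3.75 for SEC22, 3.29 for SLX9, 3.28 for TVP15 and 2.93 for GAS5.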

How the results depend on the processing

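The count of genes that passed depended on the processing. Against 25 higher and 7 lower, it was 25 and 7 with quantile normalization over the 6 arrays, 37 and 12 among brighter genes, 61 and 21 with the 4 arrays alone, 59 and 29 with 12 arrays, 7 and 0 with 4 times the pseudocount (723 at an unadjusted p under 0.05) and 1 and 1 under median centring. In limma it was 0 and 0 under cyclic loess (766), with no background subtraction (773), on the authors' series table (503), with no membrane set block (326) and with plate medians removed (686). Leaving out each array gave 0 to 183 higher and 0 to 120 lower, with 390 genes at an unadjusted p under 0.05 without the F1 mock array and 899 without the YPD mock array. The fit was paired by membrane set through the block, as the labels tie mock and treated arrays of a medium to 1 membrane, and the fit with no membrane set block is the unpaired one. Genes at least 2-fold higher and lower in both media numbered 117 and 231 under median centring, where the all-gene median was -0.21, 157 and 145 under cyclic loess, 23 and 2 with no background subtraction, 59 and 50 with 4 times the pseudocount, 62 and 39 in the series table and 96 and 84 among brighter genes. Genes whose effect differed between the times numbered 447 under median centring, 0 under cyclic loess (1135 at an unadjusted p under 0.05), 32 with no background subtraction, 0 on the series table (914), 2 with plate medians removed and 0 to 281 with an array left out, 0 of them without the F1 mock array (753). Of the 32 genes that passed, 31 kept the direction of their mean difference over the media under each of these alternatives that held them, where 9 genes were not among the brighter genes. SPB4 is counted among the 31, since its mean stayed below 0 on the series table, though its YPD difference there was 0.07. SCJ1 turned to 0.13 with no background subtraction, as did KAP123 to 0.62, AIM33 to 0.27, RFA1 to -0.45, CCT8 to -0.0086 and HSP12 to -0.30. HSP12 was also at -0.28 under median centring and -0.018 in the series table, and RPN4 at 0.0628 with 4 times the pseudocount, 0.14 in the series table and 0.0783 with plate medians removed. With an array left out RAD54 ran from -0.62 to 0.48, RPN4 from -0.66 to 0.61, HSP12 from -0.11 to 0.28, PDR5 from -0.52 to 0.12 and SNQ2 from -0.76 to 0.50. The medians of 18 of 32 gene lists moved under median centring and of 11 under cyclic loess. The cause of these changes was not tested. Both spots lay above the background on all 4 arrays for 59% of genes, and the signal over background limits the others.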
